A study of Mus musculus with 14 samples.

Results

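The Schlafen genes are a family of mouse genes that lie beside one another on chromosome 11, and 7 of its members (Slfn1, Slfn2, Slfn3, Slfn4, Slfn5, Slfn8 and Slfn9) are described here in sorted spleen T cells of leukemic mice. They were chosen by symbol, as the 7 rows with these names among the 24091 genes of the counts table. Schlafen proteins share an N-terminal region that can bind, and in some members cut, transfer RNA, and many of the genes are induced by type I interferon. The family is divided into short members (Slfn1 and Slfn2), intermediate members (Slfn3 and Slfn4) and long members with an added helicase-like part (Slfn5, Slfn8 and Slfn9). Slfn2 is the best known in T cells: its loss ends the resting state of naive T cells, and its protein shields transfer RNA from the ribonuclease angiogenin during activation.

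The bulk RNA-seq compared T cells of mice modelling chronic phase (CP) and blast crisis (BC) chronic myeloid leukemia (CML), to ask what changes in T cells when miR-142 is missing. The CP CML group held 8 Mir142+/+BCR-ABL mice and the BC CML group 6 Mir142−/−BCR-ABL mice, all CD45.2 C57Bl/6j, of both sexes and 6 to 10 weeks old. Both groups carried the BCR-ABL transgene, which was driven by a tetracycline transactivator under the stem cell promoter SCL and had been switched on for 3 weeks by withdrawing tetracycline. Each library came from 200000 T cells of 1 mouse. Mir142 was absent from every cell of the BC CML mice, blood and other tissues included, so loss in the T cells and loss elsewhere cannot be told apart. The animal names in the labels open with 1 number in all CP CML mice and another in all BC CML mice, and whatever that number marks cannot be told apart from the genotype. The name of BC CML replicate 5 alone ends in the letters RP, whose meaning the labels do not give. The labels give no separate batch of library preparation or sequencing.

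Libraries held between 15703702 and 19914531 reads counted in genes. Mir142, the deleted gene, was counted with 302 to 650 reads per CP CML mouse and with 0 reads in all 6 BC CML mice. Of the 12248 genes that passed the filter on low counts, edgeR's quasi-likelihood test called 7986 (65.2%) at an adjusted p-value below 0.05, with 3987 (32.6%) higher and 3999 (32.7%) lower in BC CML. In 4516 of them (36.9%) the values of the groups did not overlap. The median change over all tested genes was −0.01 and the median size of the change 0.28 on the log2 scale. All 11 T cell markers found in the table were detected in every library, with a summed level of 4605 to 5385 CPM in CP CML and 5957 to 6586 CPM in BC CML. Within this list Cd8a (log2 fold change 0.87, adjusted p = 2.38e-08) and Thy1 (0.67, adjusted p = 3.45e-08) were among 5 that rose, and Cd4 (−0.73, adjusted p = 4.98e-06) and Cd247 (−0.32, adjusted p = 2.51e-06) fell. The part of this shift between CD4 and CD8 transcripts in the Schlafen results was not tested. CPM relate the reads of a gene to the size of its library, scaled by TMM factors.

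Since the compared mice differ in miR-142, its mature sequences are shown first, with the seed (bases 2 to 8) that pairs with target transcripts in capitals. Both are given by RefSeq for GRCm38.p6, on the plus strand at chr11:87756867-87756887 and chr11:87756903-87756925.
mmu-miR-142a-5p: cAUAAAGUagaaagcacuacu
mmu-miR-142a-3p: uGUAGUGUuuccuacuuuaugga
The longest 3′UTRs of the 7 members in GENCODE vM21 were searched for the seed matches ACTTTAT, ACTTTATA and CTTTATA of the 5p strand and ACACTAC, ACACTACA and CACTACA of the 3p strand, overlapping matches being counted under the longest. None of the 7 held a match to either strand. These 3′UTRs ranged from 53 bases in Slfn3 and 345 in Slfn2 to 2786 in Slfn9 and 3136 in Slfn5. In Slfn8 and Slfn3 they belonged to transcripts with coding sequences of 1224 and 1554 bases. The longest coding sequences of these genes were 2733 and 1923 bases, and the 3′UTRs of those transcripts were not searched separately. For comparison, 3528 of 11503 tested genes with a 3′UTR (30.7%) held at least 1 match, at a median 3′UTR length of 1186 bases. The absence of a match says only that these letters are not in this window of the gene.

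The family is known for its response to interferon, so the members' promoters were searched for GAAANNGAAA, the core of the interferon-stimulated response element, on both strands of the RefSeq window from 250 bases before to 50 bases after each listed start. Slfn5, Slfn8 and Slfn9 held it, and Slfn1, Slfn2, Slfn3 and Slfn4 did not. The stretches around it are shown on the strand of each gene in GRCm38.p6, plus in Slfn5 and minus in Slfn8 and Slfn9. The motif is in capitals, and in Slfn8 and Slfn9 the strand of the gene holds its reverse complement.
Slfn5, motif at chr11:82951947-82951956: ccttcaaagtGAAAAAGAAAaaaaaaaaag
Slfn8, motif at chr11:83020849-83020858: atttgagcagTTTCGTTTTCcccaaaagca
Slfn9, motif at chr11:82991866-82991875: atccgagcagTTTCGTTTTCccaaaaacaa
Counted from the start, the motif began at base −45 in Slfn9 and at base −155 in Slfn5, where it lay in an A-rich run. In Slfn8 it began at base −48 of one listed start and −136 of the other. Counted per gene with any promoter entry, the motif was present in 3 of the 7 members (42.9%), in 1079 of all 27025 genes (3.99%) and in 12 of 19 interferon-stimulated genes of the list below (63.2%). Of all 32851 promoters 3.44% held it. The match is a description of the sequence and not of a bound factor.

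The members followed one another from Slfn5 to Slfn3 over 263053 bases of chromosome 11 in mm10, a stretch that ended 4541710 bases before Mir142. Slfn5 (82952102 to 82964850), Slfn2 (83065112 to 83070678), Slfn1 (83116845 to 83122659), Slfn4 (83175186 to 83190216) and Slfn3 (83191330 to 83215154) were listed on the plus strand. Slfn9 (82980303 to 82991830) and Slfn8 (83002158 to 83020810) were listed on the minus strand. The coding sequences of Slfn3 and Slfn4 were 92.7% identical over 1788 aligned bases and those of Slfn8 and Slfn9 92.7% identical over 2733. Those of Slfn1 and Slfn2 were 71.7% identical over 1005 bases. Of all windows of the length of 1 read in the transcripts, 3.27% in Slfn8, 3.64% in Slfn9 and at most 0.0639% in the other members were also present in another Schlafen transcript, so reads of Slfn8, Slfn9 and the pseudogene Slfn10-ps are the least certain to be assigned.

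All 7 members passed the filter, each in all 14 mice. In BC CML 2 rose (Slfn3 and Slfn4), 3 fell (Slfn1, Slfn2 and Slfn5), and Slfn8 and Slfn9 did not pass the test. The 5 calls among 7 members stand beside 65.2% of all tested genes called. The groups did not overlap in 3 of the 7 members (Slfn1, Slfn3 and Slfn4), beside 36.9% of all tested genes. Apart from Slfn4, then, neither the number of calls nor their size set the family apart from the background in this comparison.

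**Figure D1:**
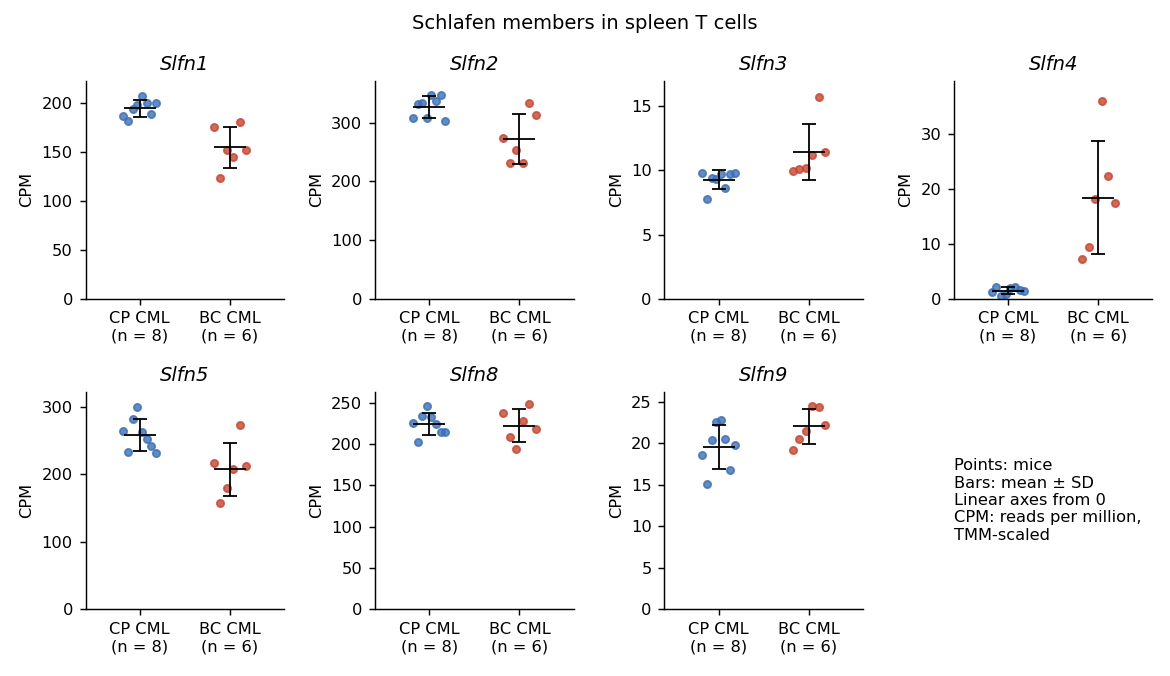
Level of each Schlafen member in CPM (linear axes from 0) in 8 CP CML and 6 BC CML mice, with 1 point per mouse and bars for the mean ± SD. Slfn4 rose from a mean of 1.48 to 18.5 CPM without overlap, while the fitted ratios of BC to CP CML in the other members lay between 0.796 and 1.23.

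Slfn2, the quiescence gene, was the most abundant member and was moderately lower in BC CML. It was measured at 302 CPM in the lowest, 332 in the median and 347 in the highest CP CML mouse. In BC CML it was at 231 CPM in the lowest, 264 in the median and 334 in the highest mouse. The groups overlapped, because replicates 5 and 6 of BC CML, at 334 and 312 CPM, lay within the CP CML range, while the other 4 BC CML mice lay below it. The means were 326.7 ± 18.2 CPM (SD, n = 8) and 272.8 ± 42.5 CPM (SD, n = 6), a log2 fold change of −0.26 ± 0.08 (SE) or a fall of 16.5% (adjusted p = 0.00635, edgeR's quasi-likelihood test). Of all tested genes, 52.5% changed by more on the log2 scale.

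Slfn1, the other short member, which slows the growth of thymocytes when overexpressed, fell in BC CML. Its level was 181 CPM in the lowest, 196 in the median and 208 in the highest CP CML mouse, against 124, 152 and 181 CPM in BC CML. The groups did not overlap, all BC CML values being the lower ones, although the highest of them lay just under the lowest of CP CML. The means of 194.6 ± 8.58 CPM (SD, n = 8) and 154.8 ± 21.0 CPM (SD, n = 6) gave a log2 fold change of −0.33 ± 0.07 (SE), or a fall of 20.4% (adjusted p = 0.000333, edgeR's quasi-likelihood test).

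Slfn4, an intermediate member known as an interferon-induced gene of macrophages and other myeloid cells, had by far the largest change of the family. In CP CML it was barely detected, with 11 to 41 reads per mouse, or 0.562 CPM in the lowest, 1.46 in the median and 2.22 in the highest mouse. In BC CML replicates 1 to 6 it was measured at 7.21, 9.41, 18.2, 36.1, 22.5 and 17.5 CPM, from 130 to 690 reads. All 6 BC CML mice were above all 8 CP CML mice, and the BC CML mice also differed widely among themselves, with a coefficient of variation of 56.1% that was the largest of the 7 members in either group. The means were 1.48 ± 0.602 CPM (SD, n = 8) and 18.5 ± 10.4 CPM (SD, n = 6). The log2 fold change was 3.65 ± 0.37 (SE; 95% confidence interval 2.85 to 4.46), a 12.6-fold rise (adjusted p = 8.72e-07, edgeR's quasi-likelihood test). No more than 0.604% of all tested genes had a larger change.

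Slfn3, the close relative of Slfn4, was expressed at a low level and rose slightly. It was at 7.76 CPM in the lowest, 9.57 in the median and 9.82 in the highest CP CML mouse, and at 9.93, 10.7 and 15.8 CPM in BC CML. The groups did not overlap, but the lowest BC CML mouse lay only just above the highest CP CML mouse and the highest, replicate 5, stood well above the other BC CML mice. The log2 fold change was 0.30 ± 0.10 (SE), from 9.28 ± 0.731 CPM (SD, n = 8) to 11.4 ± 2.21 CPM (SD, n = 6; adjusted p = 0.0145, edgeR's quasi-likelihood test). Without replicate 5 of BC CML the log2 fold change was 0.19 (adjusted p = 0.0450).

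Of the long members, Slfn5, an interferon-induced nuclear protein that acts on transcription, fell in BC CML. It was at 232 CPM in the lowest, 258 in the median and 300 in the highest CP CML mouse, and at 158, 210 and 273 CPM in BC CML. The groups overlapped through BC CML replicate 5 alone, which at 273 CPM was above the CP CML median, and the other 5 BC CML mice were below every CP CML mouse. The means of 258.6 ± 24.0 CPM (SD, n = 8) and 207.7 ± 39.1 CPM (SD, n = 6) gave a log2 fold change of −0.32 ± 0.10 (SE), a fall of 19.7% (adjusted p = 0.0108, edgeR's quasi-likelihood test).

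Slfn8, another long member, differed by less than the spread between mice. Its level was 202, 225 and 246 CPM in the lowest, median and highest CP CML mouse and 194, 223 and 248 CPM in BC CML. Its log2 fold change of −0.01 had a 95% confidence interval of −0.12 to 0.10 (adjusted p = 0.855, edgeR's quasi-likelihood test). Slfn9, its near copy in sequence, was far less abundant, at 15.1, 20.1 and 22.8 CPM in CP CML and 19.2, 21.9 and 24.5 CPM in BC CML. Its values overlapped widely between the groups, and a log2 fold change of 0.17 had an interval of −0.01 to 0.36 (adjusted p = 0.0944, edgeR's quasi-likelihood test).

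Compared per length, as CPM per kilobase of listed gene length (RPKM), the members fell into an abundant and a scarce set. In CP CML the order of the levels was Slfn2 (196.6 ± 10.9 RPKM, SD, n = 8), Slfn1 (104.9 ± 4.62), Slfn8 (56.0 ± 3.37), Slfn5 (42.8 ± 3.98), Slfn9 (4.84 ± 0.660), Slfn3 (4.69 ± 0.369) and Slfn4 (0.375 ± 0.152). Of the neighbours in this order, Slfn9 and Slfn3 overlapped over mice and the others did not. In BC CML it was Slfn2 (164.1 ± 25.6 RPKM, SD, n = 6), Slfn1 (83.4 ± 11.3), Slfn8 (55.5 ± 4.90), Slfn5 (34.4 ± 6.48), Slfn3 (5.78 ± 1.12), Slfn9 (5.46 ± 0.522) and Slfn4 (4.67 ± 2.62). There Slfn3 and Slfn9 overlapped, as did Slfn9 and Slfn4. Slfn4, which was below all other members in every CP CML mouse, ranged in BC CML from 1.82 to 9.12 RPKM, across the range of Slfn9 (4.76 to 6.06 RPKM). The 4 abundant members kept their order in both groups.

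**Figure D2:**
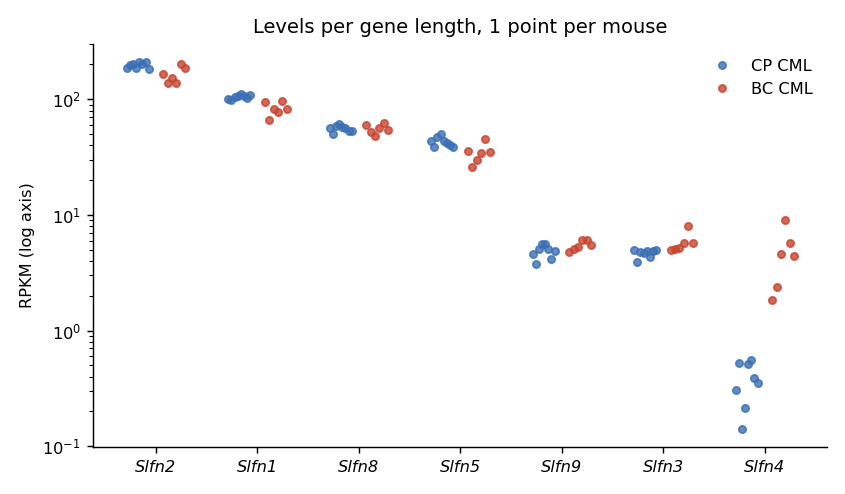
Level of each member per kilobase of gene length (RPKM, log axis), 1 point per mouse, ordered by the CP CML mean. The 4 abundant members kept their order in both groups, and Slfn4 moved from 0.375 RPKM in CP CML, below all others, to 4.67 RPKM in BC CML, where single mice lay below and above the range of Slfn9.

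The summed level of the 7 members was 972 to 1085 CPM in CP CML (median 1032) and 762 to 1098 CPM in BC CML (median 912), with overlap. Slfn4 made up 0.144% of this sum in CP CML and 2.03% in BC CML, and Slfn3 0.898% and 1.25%. The share of Slfn8 was 21.7% and 24.6%, and that of Slfn2 31.6% and 29.97%. Despite its 12.6-fold rise, Slfn4 thus stayed a small part of the family's RNA.

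The libraries also differed in markers of other cells. All of the 7 naive T cell markers fell in BC CML (median log2 fold change −0.70), their summed level being 4498 to 5825 CPM in CP CML and 2419 to 3556 CPM in BC CML, and none was at 0 in any mouse. Among the most abundant were the transcription factor Tcf7 (−0.67, adjusted p = 7.09e-08) and the interleukin-7 receptor Il7r (−1.004, adjusted p = 3.01e-05). Among 12 effector and memory markers 10 rose and 1 fell (median 0.99). The called shares of the naive and effector lists were 100% and 91.7%, beside 65.2% over all tested genes (32.6% higher and 32.7% lower). The falls of Slfn1, Slfn2 and Slfn5 thus stood beside a fall of the naive markers, whose part in the result was not tested. In bulk libraries fewer cells of a type and less RNA per cell cannot be told apart.

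Of 18 myeloid markers, Cebpe reached the level of the filter in 5 of 8 CP CML and all 6 BC CML mice and is left uncounted, and of the other 17, 15 rose and none fell (median log2 fold change 2.10, range 0.28 to 3.14). The summed level of all 18, Cebpe included, was 195 to 858 CPM in CP CML (median 430) and 1292 to 2627 CPM in BC CML (median 1685). At most 2 markers were at 0 in a CP CML mouse and none was at 0 in BC CML. The most abundant, Ly6c2, which effector and memory CD8 T cells also make, was at 86.6 ± 8.50 CPM (SD, n = 8) in CP CML and 402.2 ± 46.5 CPM (SD, n = 6) in BC CML. The NK cell markers summed to 246 to 328 CPM in CP CML and 614 to 841 CPM in BC CML. Of the 7 in the fit, Klra8 reached the level of the filter in 0 CP CML and 6 BC CML mice and is left uncounted, and the other 6 rose. Of 8 B cell markers 6 rose (75%), the sum being 42.2 to 153 CPM in CP CML and 73.5 to 454 CPM in BC CML. Of 4 erythroid markers tested 1 rose (25%). These shares, and the 88.2% of the 17 myeloid markers, stand beside 65.2% of all tested genes called, with 32.6% higher. The part of the NK, B cell and erythroid markers in the Schlafen results was not tested.

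Slfn4 and the myeloid markers were higher in the same mice. The log2 fold change was 3.65 in Slfn4 and at most 3.14 in the 18 markers, in Elane, a neutrophil protease. Per 1000 CPM of the summed markers, a ratio chosen after seeing the data, Slfn4 was at 1.61 to 4.97 CPM in CP CML (median 3.36) and 5.58 to 20.01 CPM in BC CML (median 8.93). This ratio was 2.78-fold higher in BC CML, a description given with no test. With the mean log2 level of the markers as a covariate in the fit, the log2 fold change of Slfn4 was 2.97 ± 0.67 (SE; adjusted p = 0.00289, edgeR's quasi-likelihood test). Whether the Slfn4 reads came from T cells or from other cells was not tested.

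**Figure D3:**
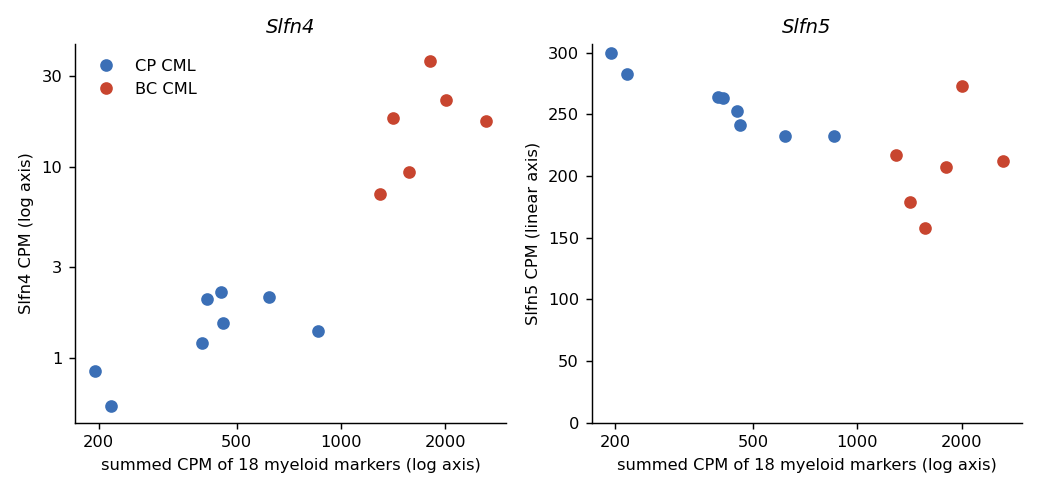
Slfn4 (log axis) and Slfn5 (linear axis from 0) in CPM against the summed CPM of 18 myeloid markers (log axis), 1 point per mouse. In CP CML the Slfn5 level fell along the marker sum, and in BC CML both the marker sum and Slfn4 were above all CP CML mice.

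With the same covariate 3 of the 7 members were called (Slfn1, Slfn2 and Slfn4) in place of 5, beside 5324 of all 12248 tested genes (43.5%) in place of 7986. Slfn1 was at −0.30 (adjusted p = 0.0330) and Slfn2 at −0.34 (adjusted p = 0.0394), both close to the values without it. Slfn3 (0.24, adjusted p = 0.281) and Slfn5 (−0.14, adjusted p = 0.488) no longer passed. Slfn8 was at 0.10 (adjusted p = 0.358) and Slfn9 at 0.33 (adjusted p = 0.0685). The marker score separated the groups almost as the genotype did, so the standard errors in this fit were larger for all 7 members.

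**Figure D4:**
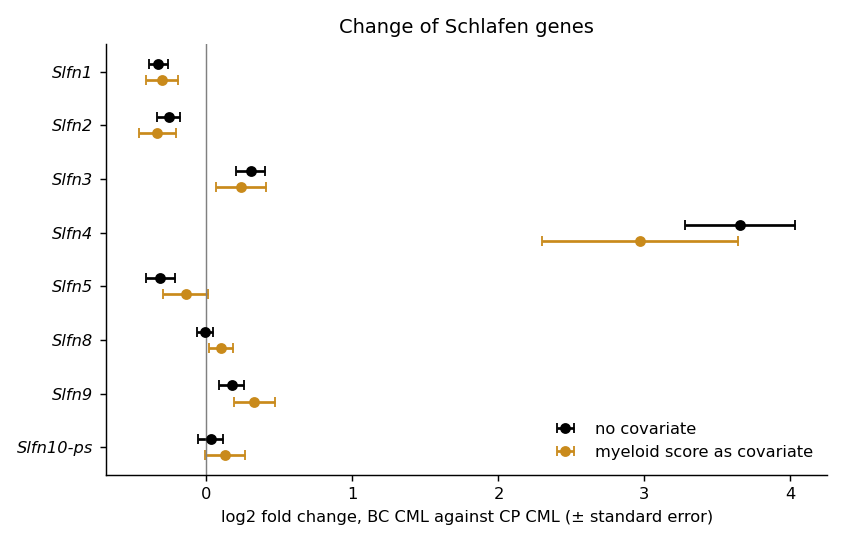
Log2 fold change of BC CML against CP CML with its standard error, for the 7 members and their relative Slfn10-ps, without (black) and with (ochre) the myeloid marker score as covariate. Slfn4 moved from 3.65 to 2.97 and stayed far above the rest, and Slfn5 moved from −0.32 to −0.14.

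Within the CP CML mice the relation of each member to the myeloid marker sum was also examined, a choice made after seeing the data, giving 14 relations over both groups. Slfn5 fell along the log2 marker sum (Pearson r = −0.95, exact permutation p = 2.48e-05, adjusted p = 0.000347; Spearman rho = −1, p = 4.96e-05, adjusted p = 0.000694; n = 8, two-sided), and without the 2 mice farthest from the median r was −0.92. Over all tested genes 0.237% had as large an r of either sign. In the same mice the marker sum was also related to library size (r = −0.83), and so was Slfn5 (r = 0.80), so marker level and depth cannot be told apart here. For Slfn8 r was −0.83 (exact permutation p = 0.0132, adjusted p = 0.0922) and rho −0.90 (p = 0.00456, adjusted p = 0.0319), and r was −0.79 without the 2 farthest mice. Over all tested genes 1.45% had as large an r as Slfn8, whose r with library size was 0.67. For Slfn4 r was 0.70 (exact permutation p = 0.0522, adjusted p = 0.244) and rho 0.62 (p = 0.115, adjusted p = 0.381), and without the 2 farthest mice r was 0.89. As large an r as that of Slfn4 was found in 5.03% of all tested genes, and its r with library size was −0.63. None of the 7 relations in BC CML passed after adjustment (for Slfn5 r = 0.39, exact permutation p = 0.450, adjusted p = 0.700; n = 6), and the difference between the groups was not tested.

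The relatives of the family that were not among the 7 are 2 genes of the same cluster that were tested and 2 that were not. Slfn10-ps, a pseudogene between Slfn8 and Slfn2, was at 43.5 ± 5.90 CPM (SD, n = 8) in CP CML and 44.4 ± 4.62 CPM (SD, n = 6) in BC CML (log2 fold change 0.03 ± 0.09, SE, adjusted p = 0.782). Slfn14, whose protein cuts ribosomal RNA and which is known from platelets and red cell precursors, was counted with 5 to 10 reads per CP CML mouse and 16 to 31 per BC CML mouse. The groups did not overlap, with means of 0.383 ± 0.124 CPM (SD, n = 8) and 1.33 ± 0.374 CPM (SD, n = 6). It reached the level of the filter in 1 CP CML and all 6 BC CML mice and so entered the fit through the group in which it was high, and its difference is given as a description with no test. Slfnl1, with at most 4 reads, and Slfn5os, an antisense gene that overlaps Slfn5 and had at most 2, were removed by the filter.

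Interferon-stimulated genes, the class to which much of the family belongs, rose more often than not in the fit without covariate. Of 27 tested genes 18 rose and 2 fell, with a median log2 fold change of 0.47 against −0.01 over all genes, and 74.1% were called against 65.2% of all genes. With the myeloid covariate 12 rose and 2 fell, or 14 of 27 called beside 43.5% of all genes. Without BC CML replicate 5, and without the covariate, 15 rose and 4 fell. The largest rise was in Ifi44 (2.49 ± 0.27, SE, adjusted p = 4.38e-07) and the largest fall in Ifit1bl1 (−0.94 ± 0.17, SE, adjusted p = 0.000178). The most abundant were the ADP-ribosyltransferase Parp14 (0.22, adjusted p = 0.00202), the RNA sensor Ddx58 (0.24, adjusted p = 0.00107) and Trim30a (−0.37, adjusted p = 5.40e-05). Slfn4 thus changed by more on the log2 scale than any of these 27 genes, whereas Slfn5, which holds the motif in its promoter, fell.

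Of 12 genes of type I interferon signalling, a list of receptors, kinases, transcription factors and the inhibitors Ptpn6 and Socs1, 7 rose and 3 fell (median 0.22), or 83.3% called beside 65.2% of all tested genes. With the myeloid covariate 5 rose and 1 fell, or 6 of 12 called beside 43.5% of all genes. The kinase Jak1 was the most abundant and did not pass (−0.01, adjusted p = 0.812). Both inhibitors were among the 7, the phosphatase Ptpn6 with the largest rise of the list (0.94, adjusted p = 8.72e-08) and Socs1 with 0.65 (adjusted p = 0.000100). Irf9, a DNA-binding factor of the pathway, had the largest fall (−0.36, adjusted p = 0.00242).

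Genes around the known roles of Slfn2 were also examined. Angiogenin, whose cleavage of transfer RNA the Slfn2 protein counters, was hardly present: Ang had at most 7 reads in a mouse, and Ang2 and Ang5 had 0 reads in all 14. Of the 5 tested genes of transfer RNA cleavage and protection 1 rose and 2 fell, a called share near that of all genes, and with the myeloid covariate 1 rose and none fell. Rnh1, the inhibitor of angiogenin and related ribonucleases, rose (0.41, adjusted p = 1.58e-06), and the transfer RNA methyltransferase Nsun2 (−0.22, adjusted p = 0.00148) and the processing enzyme Elac2 (−0.17, adjusted p = 0.0129) fell. Of 16 genes of lymphocyte quiescence 6 rose and 5 fell, with a median of −0.03, and the called share of 68.8% was close to the 65.2% of all genes. Its 3 most abundant genes were the transcription factor Ets1 (−0.52, adjusted p = 4.18e-08), the antiproliferative gene Btg1 (0.40, adjusted p = 4.41e-05) and the transcription factor Foxo1 (−0.05, adjusted p = 0.327).

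The neighbourhood of the cluster was described from 1000000 bases before Slfn5 to the same distance beyond Slfn3, Schlafen genes left out. Of 45 listed genes 25 were tested, and 23 of these reached the level of the filter in at least 6 mice of each group. Of the 23, 7 were higher and 9 lower in BC CML (69.6% called, median −0.03), beside 65.2% over all genes. With the myeloid covariate 7 of all 25 were called (4 higher and 3 lower), beside 43.5% over all genes. That count includes genes short of the filter level in a group, so it does not compare directly with that of the 23. Among the 23, the largest changes were in Ccl3 (3.20 ± 0.34, SE, adjusted p = 8.82e-07) and Ccl4 (2.02 ± 0.26, SE, adjusted p = 4.23e-06), chemokines of activated T, NK and myeloid cells. Wfdc21, which reached the level of the filter in 4 CP CML and 6 BC CML mice, was at 0.841 ± 0.757 CPM (SD, n = 8) and 3.59 ± 1.30 CPM (SD, n = 6) and is given with no test. Slfn4 rose while Slfn1, on one side, fell and Slfn3, on the other, rose by 0.30, so adjacent members did not share one change.

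**Figure D5:**
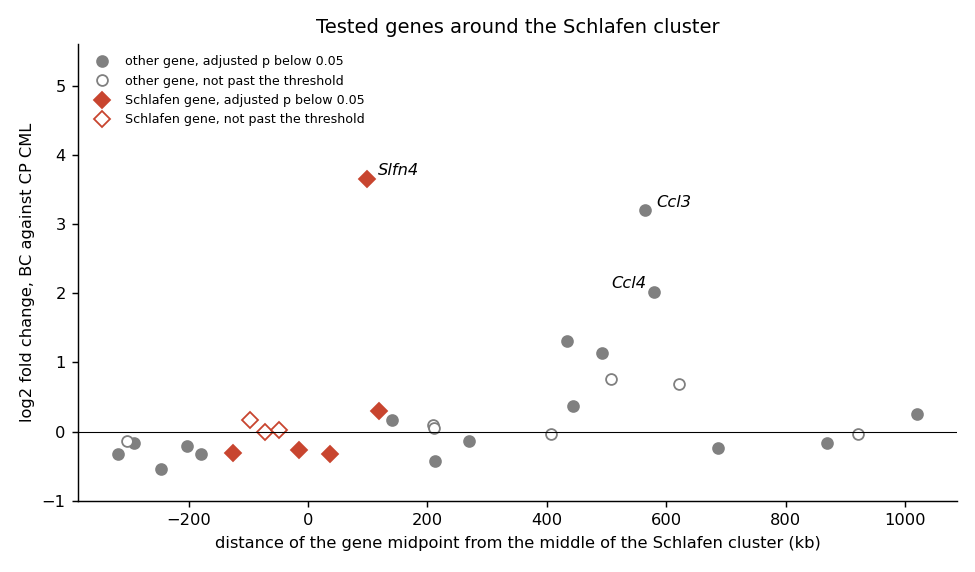
Log2 fold change of BC CML against CP CML for the tested genes around the Schlafen cluster, by the distance of each gene's midpoint from the middle of the cluster in kilobases. Schlafen genes are diamonds, other genes circles, and filled symbols have an adjusted p below 0.05. Slfn4, at 3.65, was the highest point, above Ccl3 at 3.20. Slfn14 and the genes short of the filter level in either group are not drawn.

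Over the 14 mice, the deviations of each member from its group mean (log2 CPM) were compared as a description, since the values share libraries and depth. Slfn5 and Slfn8 deviated together (r = 0.86), followed by Slfn1 and Slfn5 (0.75), Slfn3 and Slfn5 (0.68) and Slfn1 and Slfn2 (0.64). Slfn4 stood apart, with r between −0.20 and 0.21 to each of the others, its close relative Slfn3 included. Among 9072 genes of sufficient level, the deviations most like those of Slfn2 were those of Sub1 and Prps1l3 (both 0.90), the proteasome genes Psmc2 (0.90) and Psma7 (0.88), and Nudt21 (0.86). Those most like Slfn4 were Mtch2 (0.87), Cep76 (0.80), and R3hcc1l, Atp6v1b2 and Pdcd2 (0.77 each). These 10 genes were picked as the highest r among 9072 over 14 mice, a choice that by itself gives high values. Between the groups these 10 genes changed by −0.41 to 0.13 on the log2 scale, beside −0.26 in Slfn2 and 3.65 in Slfn4.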

How the data were processed

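RNA-seq of 14 spleen T cell samples (8 CP CML and 6 BC CML mice) was analysed. The authors trimmed reads with Trimmomatic and FASTP, aligned them to mm10 with STAR 2.6.0, counted them per gene with HTSeq 0.11.1 (versions from the submitters' processing notes) and deposited the raw counts, not normalized, of 24091 genes beside a position and a length for each. The annotation and strand setting are not given in the sources used here, and overlapping or near-identical genes may share reads. Columns of counts were matched to mice by name.

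Counts were fitted in R 4.3.3 with edgeR 4.0.16 and limma 3.58.1: filterByExpr on the group (12248 genes), TMM, glmQLFit with robust estimation and glmQLFTest, with no covariate and Benjamini-Hochberg adjustment over all tested genes at 0.05. The SE was computed from the log2 fold change and F. CPM used TMM-scaled library sizes, and log2 CPM a prior count of 2. DESeq2 1.42.0 was an alternative. The fits were tested on simulated data. Sequences came from RefSeq (GRCm38.p6) and GENCODE vM21.

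The members, lists and tests were chosen with earlier results of these data known. Named genes were the members, their relatives and Mir142, the 3 most abundant tested genes of each list (for the interferon lists also the largest rise and fall), the 3 called genes beside the cluster with the largest change, and the 5 genes most like Slfn2 and Slfn4. Genes that the rule names but the text omits are not reported here. Angiogenin genes, Socs1, Klra8, Cebpe, Elane, Ly6c2 and other marker genes named outside this rule were chosen after their values were seen. Replicate pairs differed by a chi-square per degree of freedom of 3.03 to 22.8, and all libraries were kept as separate samples. Depth was 15703702 to 19914531 reads per sample.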

Additional observations from a re-analysis of the deposited data

Results flagged for a closer look

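The level of Slfn3 in BC CML replicate 5 was 15.8 CPM, against 11.4 CPM in the next highest BC CML mouse, a gap of 0.745 of the group's range. The total of BC CML replicate 2 was 16145537 reads, against 18319039 in the next BC CML library, a gap of 0.668 of the range. Both gaps exceeded Dixon's critical value for 6 samples. Of 36 groups of values examined these 2 were marked, where chance gives 1.8.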

How the results depend on the processing

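The members called (5) were as many under the likelihood ratio test, DESeq2, RLE factors, library size alone, both other filters and the replicate block, and 5 to 6 with each mouse left out, the sixth being Slfn9 without CP CML replicate 5 (0.20, adjusted p = 0.0489). With the myeloid score as covariate there were 3, while all genes called fell from 7986 to 5324. Calls then fell to 14 of 27 interferon-stimulated genes, 8 of 16 quiescence genes and 6 in type I interferon signalling. They fell to 1 in transfer RNA cleavage and protection and to 7 of all 25 tested genes beside the cluster. Slfn8, not called, changed sign with that covariate (0.10) and with single mice left out (−0.0483 to 0.0236). Slfn10-ps, not called, changed sign with single mice left out (−0.0107 to 0.0705) and was at 0.13 with the covariate. The cause was not tested. Ordered by CPM without the length, 5 of 7 members kept their rank in CP CML and 1 of 7 in BC CML, by construction.

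With a mouse left out the log2 fold change was −0.38 to −0.27 for Slfn1, −0.33 to −0.22 for Slfn2, 0.19 to 0.34 for Slfn3, 3.35 to 3.82 for Slfn4 and −0.41 to −0.25 for Slfn5. The labels do not say whether replicate numbers pair the mice. The r of same-numbered deviations was −0.27 to 0.36 over 6 pairs (mean −0.02), too few to decide it. With the replicate block, on replicates 1 to 6, all genes called were 7280 and Slfn4 was at 3.53. The block changed no member's call, and with it 16 interferon-stimulated genes rose and 4 fell. Slfn4 in CP CML rested on 11 to 41 reads per mouse, which limits its ratio.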
